A study of Mus musculus with 9 samples.

Results

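Secreted Wnt antagonists are extracellular proteins that keep Wnt ligands from signalling, and 8 of their genes, chosen by name from the 54532 genes counted, were followed in ST2 cells: Sfrp1, Sfrp2, Sfrp4, Frzb, Dkk1, Dkk2, Dkk3 and Wif1. ST2 is a mouse bone marrow stromal cell line, wild type by its label, that can be driven towards osteoblasts by Wnt. Messenger RNA was counted after 72 h in 9 libraries, 3 from cells given vehicle, 3 from cells given recombinant human Wnt3a (rhWnt3a, 50 ng/ml) and 3 from cells given rhWnt3a with OSMI, an inhibitor of the O-GlcNAc transferase OGT, at 20 µM. The third group was read as the combination because its sample titles name both agents, although its treatment label names OSMI alone, and no group was taken as OSMI without rhWnt3a. All libraries came from a cell line in culture, and the labels do not say whether the 3 samples of a group were separate cultures, so p-values measure only the spread between these samples.

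Wnt proteins bind a Frizzled receptor together with the coreceptor LRP5 or LRP6 and thereby stabilise β-catenin, which acts with TCF and LEF factors on target genes. The secreted Frizzled-related proteins (Sfrp1, Sfrp2, Sfrp4 and Frzb, also called Sfrp3) carry a domain like the Wnt-binding part of Frizzled and capture the ligand, as does Wif1 through a domain of its own. Dickkopf proteins Dkk1 and Dkk2 instead occupy LRP5 and LRP6, and Dkk1 and Sfrp1 are known as brakes on bone formation. Dkk3 is the divergent member of the Dickkopf family, and its place in Wnt signalling is less settled.

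The 9 libraries held 16135898 to 17583945 counts each, so that 3 counts, taken as the floor of detection, stood for 0.17 to 0.191 CPM (counts scaled to library size by TMM). Of 8 stromal markers, 7 passed the count filter, among them Pdgfra, Col1a1 and Cxcl12, whereas Thy1 exceeded that floor in 1 library only and the osteoblast markers Sp7, Ibsp and Dmp1 in none. Axin2, the standard read-out of β-catenin signalling, had 4, 14 and 10 counts with vehicle, 355, 296 and 315 with rhWnt3a, then 203, 185 and 297 when OSMI was added, so all 6 libraries labelled with rhWnt3a were above the vehicle libraries. Vehicle replicate 3, rhWnt3a replicate 2 and rhWnt3aOSMI replicate 3 lay apart from the others of their groups. Their mean squared log2 distance to the other replicates was 0.373 to 0.454, against 0.111 to 0.119 between the remaining pairs, so results are also given without these 3 libraries. Because they were picked for their distance, leaving them out lowers the spread over all genes by construction. The p-values and calls of those fits are therefore descriptions only.

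RefSeq promoter windows (mouse build GRCm38.p6, 250 bases before to 50 after the start) were at hand for 5 of the 8 genes, Sfrp2, Frzb, Dkk1, Dkk2 and Wif1. They were searched on both strands for CTTTGA and CTTTGT, the core letters that TCF and LEF factors recognise, which differ in their last letter and so cannot start at the same base of a strand. CTTTGA was found in the windows of Frzb and Dkk1 (2 of 5, against 16% of 32851 windows) and CTTTGT in those of Dkk1 and Dkk2 (2 of 5, against 18.7%). The 30 bases around the matches in Frzb, the antagonist that lost nearly all its transcript, in Dkk1, which was hardly detected, and in Dkk2 are printed in the direction of transcription, with the match in capitals (TCAAAG is CTTTGA read on the opposite strand).
Frzb, chr2:80447474-80447503, minus strand: tcccctgaaaacTCAAAGccttctcggaag
Dkk1, chr19:30549653-30549682, minus strand: gaggggagagtgTCAAAGtcctccctgctt
Dkk1, chr19:30549596-30549625, minus strand: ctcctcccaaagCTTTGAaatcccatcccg
Dkk2, chr3:132085200-132085229, plus strand: aacgttttcactCTTTGTcactcttgaatt
The Frzb match starts 95 bases before the RefSeq start but lies inside the gene in GENCODE M21, because that annotation starts Frzb further upstream. Of the 2 CTTTGA matches of Dkk1, the upstream one straddles the GENCODE start and the other lies inside the gene. The CTTTGT match of Dkk1, 98 bases before the RefSeq start and not printed, also lies inside the gene. The Dkk2 match lies in front of the gene in both annotations. A match is a description of letters and not a measured binding site.

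Wif1, whose 3 rhWnt3a libraries had more counts than any other library, and Sfrp2 had neither motif in their windows, and for Wif1 the 206 bases in front of the deposited gene start are shown for comparison.
Wif1, chr10:121033754-121033959, plus strand: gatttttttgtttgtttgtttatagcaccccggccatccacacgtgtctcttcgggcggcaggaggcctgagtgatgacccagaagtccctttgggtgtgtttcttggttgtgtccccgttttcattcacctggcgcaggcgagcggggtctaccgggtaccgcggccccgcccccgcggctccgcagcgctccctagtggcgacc
The windows of all 5 genes were richer in G and C than most, with 57.7% in Dkk2, 60.7% in Dkk1, 63.0% in Wif1, 64.7% in Frzb and 66.0% in Sfrp2, against a median of 52.7% over all windows. Wif1 had 25 CG dinucleotides, Sfrp2 22, Frzb 20, Dkk2 11 and Dkk1 9, against a median of 7.

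Per unit of transcript length, ST2 cells expressed the antagonists very unequally. Dkk3 held 96.6 to 99.3% of the summed FPKM (the authors' length- and depth-scaled level) of the 8 genes in every library, and with a mean of 29.8 FPKM over the 9 libraries it was 1604th of 54532 genes. With vehicle Dkk3 stood at 37.0 ± 3.95 FPKM (SD, n = 3 here and below), 60.1 times the next member, Frzb, at 0.616 ± 0.161. Sfrp1 (0.259 ± 0.112) and Sfrp2 (0.147 ± 0.00627) followed, and their libraries overlapped, while every Frzb library was above every Sfrp1 library. Wif1 was at 0.0546 ± 0.057 FPKM, and Dkk2, Sfrp4 and Dkk1 were at or near 0.

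The order below Dkk3 differed between the groups. With rhWnt3a the next members were Sfrp2 (0.197 ± 0.0539 FPKM) and Wif1 (0.192 ± 0.0457), whose libraries overlapped, and Frzb dropped to 0.0058 ± 0.01. With rhWnt3a and OSMI Sfrp1 had the next mean (0.115 ± 0.0451 FPKM), and its libraries were above every library of Sfrp2 (0.0354 ± 0.0307). Frzb overlapped with Sfrp1, at 0.0724 FPKM in replicate 3 against 0.0638 for Sfrp1 in replicate 2. Frzb and Wif1 also overlapped with Sfrp2 and with each other. Summed over the 7 genes other than Dkk3, the level was 1.09 ± 0.202 FPKM with vehicle, 0.493 ± 0.155 with rhWnt3a and 0.199 ± 0.0662 with rhWnt3a and OSMI. Frzb made up 51.7 to 60.5% of that sum in the vehicle libraries and 0 to 2.7% in the rhWnt3a libraries, where Sfrp2 made up 36.7 to 43.6% and Wif1 25.3 to 50.6%. With OSMI added the Frzb share was 0 in replicates 1 and 2 and 26.4% in replicate 3, from 4 counts. These sums rest on few reads, since the 7 genes together had 52 to 72 counts per vehicle library, 14 to 32 per rhWnt3a library and 10 to 17 per library with OSMI added.

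**Figure D1:**
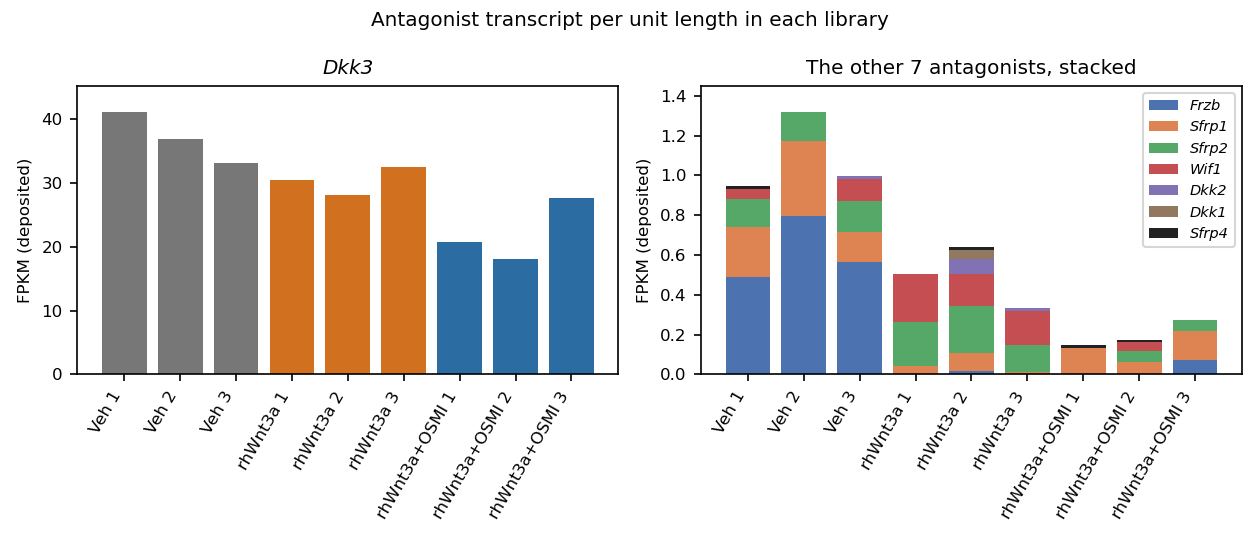
Deposited FPKM of Dkk3 (left) and of the other 7 antagonists stacked (right) in each of the 9 libraries, on separate linear axes from 0. Dkk3 exceeds the others in every library, and the Frzb share, 51.7% or more of the right-hand bars with vehicle, is 0 to 2.7% with rhWnt3a and 0 to 26.4% with OSMI added.

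In the bulk RNA used here, fewer cells making a transcript and less transcript per cell cannot be told apart. Of the 8 genes, Dkk3, Frzb and Sfrp1 passed the count filter that left 14004 genes for edgeR's quasi-likelihood test, Frzb and Sfrp1 through the vehicle group, where they were highest. Calls needed both an adjusted p (Benjamini-Hochberg) below 0.05 and a log2 change of more than 0.5 up or down. With rhWnt3a against vehicle, 2 of the 3 were called, Frzb and Sfrp1, both lower (8.78% of all tested genes were called in that comparison, 5.86% lower). With rhWnt3aOSMI against rhWnt3a, none of the 3 was called, at an edgeR unadjusted p of 0.0171 for Dkk3 and above 0.05 for the other two (background 4.74%), and DESeq2 called none either. With rhWnt3aOSMI against vehicle, Dkk3 and Frzb were called, both lower (background 14.2%, 9.34% lower). Because high vehicle libraries brought Frzb and Sfrp1 into the test, a call of either against vehicle could hardly be other than lower. The shares over all tested genes are therefore no measure for these calls. The comparisons share libraries, so they are not independent. Without the 3 libraries lying apart the counts of called antagonists were 2, 1 and 3 in the same order, as a description, since those libraries were picked for their distance.

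Among the tested genes, Dkk3, Frzb and Sfrp1 did not overlap between rhWnt3a and vehicle, as was true of 26.4% of tested genes. Dkk3 alone did not overlap between rhWnt3aOSMI and rhWnt3a (background 33.7%), and all 3 did not overlap between rhWnt3aOSMI and vehicle (background 38.8%). For Frzb and Sfrp1 against vehicle these backgrounds are no measure, since high vehicle libraries brought both into the test. With 3 libraries against 3, the smallest p that an exact permutation of a gene's values can give is 0.1, so the calls rest on the spread shared across genes.

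**Figure D2:**
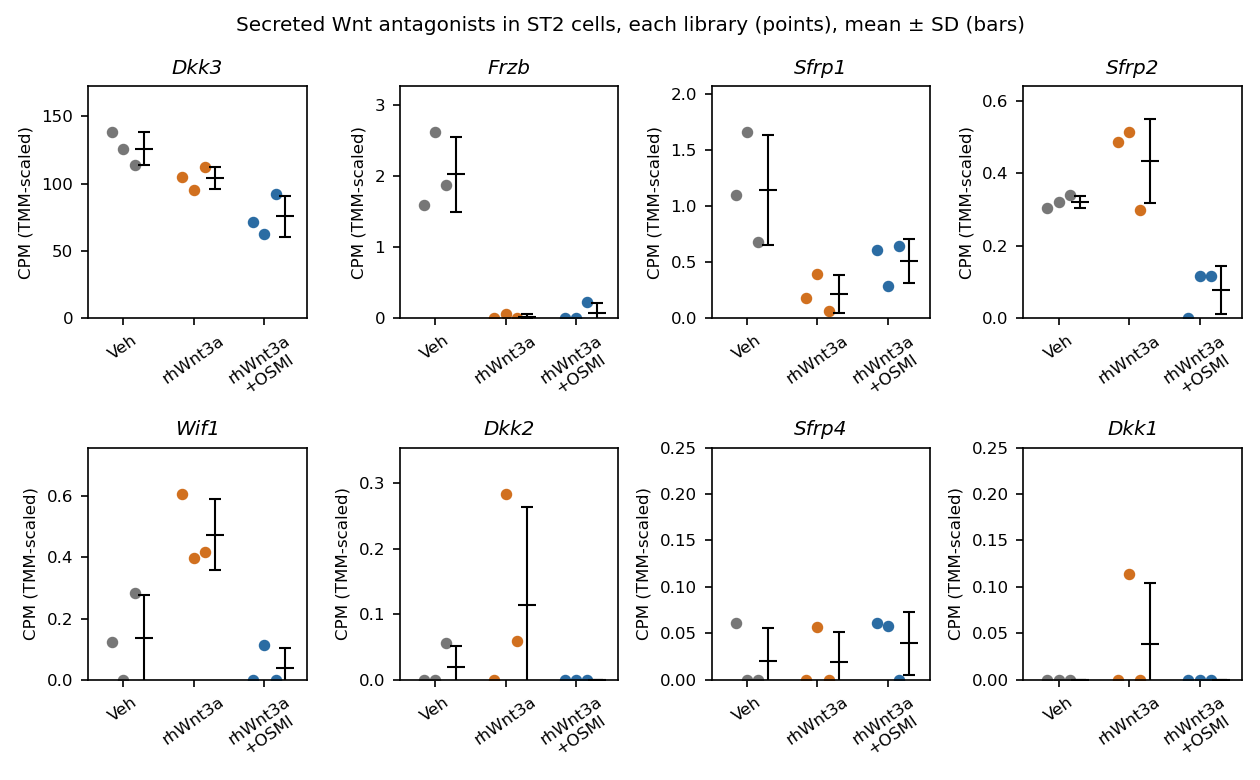
TMM-scaled CPM of each antagonist in each library (points, replicates 1 to 3 from left to right) with the group mean ± SD (bars, n = 3), on a linear axis of its own per gene. Frzb separates vehicle (1.59 to 2.61) from both other groups (0 to 0.233), Dkk3 steps down across the groups, and Wif1 is highest with rhWnt3a.

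Frzb, which binds Wnts outside the cell and was first isolated from cartilage, showed the largest fall. The gene (ENSMUSG00000027004) lies on chromosome 2 from 80411970 to 80447625 on the minus strand (GRCm38) and has 6 exons in its longest coding transcript. Its counts were 26, 41 and 33 with vehicle, 0, 1 and 0 with rhWnt3a, then 0, 0 and 4 when OSMI was added. Every vehicle library was thus above every other library, and each rhWnt3a library was at or below the floor of 3 counts. The summed counts, 100 against 1, gave a ratio of vehicle to rhWnt3a of 102 (95% interval 17.9 to 4070, exact, counting error only), and 100 against 4 gave a ratio of vehicle to rhWnt3aOSMI of 25.7 (9.73 to 96.1). In the edgeR quasi-likelihood fit Frzb was at a log2 fold change of −6.23 ± 0.94 (SE, adjusted p = 0.00249) with rhWnt3a and of −4.57 ± 0.78 (adjusted p = 0.00367) with rhWnt3a and OSMI, both against vehicle, fitted sizes that depend on the prior count. Both calls were kept under all 17 alternatives that gave a value, with edgeR or DESeq2 adjusted p up to 0.0188 and 0.0208. Between rhWnt3aOSMI and rhWnt3a Frzb gave a log2 difference of 1.66 ± 1.5 (edgeR adjusted p = 0.524, 95% interval −1.69 to 5.01), and that value rests on the 4 counts of rhWnt3aOSMI replicate 3, without which it was −1.87 (adjusted p = 0.62), and on the 1 count of rhWnt3a replicate 2, without which it was 3.54.

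Sfrp1, which captures Wnt ligands and also binds Frizzled, was low in every group. It lies on chromosome 8 from 23411502 to 23449632 on the plus strand (ENSMUSG00000031548) and has 3 exons. It had 18, 26 and 12 counts with vehicle, 3, 7 and 1 with rhWnt3a, then 10, 5 and 11 when OSMI was added. Vehicle libraries were above all others, and the groups given rhWnt3a overlapped with each other. Means were 1.14 ± 0.491, 0.213 ± 0.171 and 0.511 ± 0.195 CPM. Sfrp1 fell by 2.36 ± 0.61 on the log2 scale with rhWnt3a (edgeR adjusted p = 0.0378), and the summed counts were 5.19 times higher with vehicle (95% interval 2.69 to 11.0, counting error only).

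The Sfrp1 call depended on single libraries. The edgeR adjusted p was 0.101 without vehicle replicate 1, 0.17 without vehicle replicate 2, 0.149 without rhWnt3a replicate 1, 0.137 without rhWnt3a replicate 3 and 0.0622 without rhWnt3aOSMI replicate 1, at log2 fold changes of −1.93 to −2.39. It was 0.0576 when only the 6 libraries compared were fitted. Without the 3 libraries lying apart, which were picked for their distance, the value was −3.46 ± 0.68 (edgeR adjusted p = 0.000486, a description only). With OSMI added to rhWnt3a Sfrp1 was at 1.21 ± 0.66 on the log2 scale relative to rhWnt3a (edgeR adjusted p = 0.3, 95% interval −0.25 to 2.67), which was not called. Against vehicle the combination gave −1.15 ± 0.54 (edgeR adjusted p = 0.181), and −1.66 ± 0.53 (adjusted p = 0.0154) without the libraries lying apart.

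Sfrp2, a further ligand-capturing member, had too few counts for the filter. It lies on chromosome 3 from 83766321 to 83774316 on the plus strand (ENSMUSG00000027996). Its counts were 5, 5 and 6 with vehicle, 8, 9 and 5 with rhWnt3a, then 0, 2 and 2 when OSMI was added. All libraries with OSMI were below all others, and vehicle and rhWnt3a overlapped. Summed counts were 5.54 times higher with rhWnt3a than with OSMI added (95% interval 1.88 to 22.1, counting error only) and 4.11 times higher with vehicle than with rhWnt3aOSMI (1.33 to 16.9). In an edgeR fit without the filter, over 27560 genes, the adjusted p values were 0.132 and 0.23, and the exact permutation p of both was 0.1, the smallest possible. The 3′ end of Sfrp2 overlaps the antisense gene Gm26771, which had 1, 6 and 1, then 8, 3 and 3, then 0, 0 and 2 counts in the same libraries. Gm26771 matches 17.8% of the longest coding transcript of Sfrp2. Because the strand setting of the counting is not given in the sources used here, reads of the shared stretch cannot be told apart.

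Sfrp4, on chromosome 13 from 19623104 to 19632994 (ENSMUSG00000021319), was not above the floor in any library. It had 1, 0 and 0 counts with vehicle, 0, 1 and 0 with rhWnt3a, then 1, 1 and 0 when OSMI was added. No difference was detectable at this depth.

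Dkk3 was the antagonist with depth enough to resolve a modest change. It lies on chromosome 7 from 112116017 to 112159057 on the minus strand (ENSMUSG00000030772) and has 8 exons. Its counts were 2265, 1970 and 2018 with vehicle, 1721, 1675 and 1871 with rhWnt3a, then 1184, 1091 and 1589 when OSMI was added. After scaling the groups stepped down without overlap, from 126 ± 12.1 to 104 ± 8.38 to 75.6 ± 15.4 CPM. With rhWnt3a the log2 difference from vehicle was −0.28 ± 0.16 (edgeR adjusted p = 0.408, 95% interval −0.63 to 0.08), which was not called. With rhWnt3a and OSMI Dkk3 fell by 0.74 ± 0.16 on the log2 scale relative to vehicle (edgeR adjusted p = 0.0134), to 0.6 times the vehicle level. Relative to rhWnt3a alone the combination was at −0.46 ± 0.16 (edgeR adjusted p = 0.132).

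Single libraries decided these Dkk3 calls as well. Against vehicle, the edgeR adjusted p of the combination was 0.0733 without vehicle replicate 1, 0.0578 without vehicle replicate 2, 0.0764 without rhWnt3aOSMI replicate 1 and 0.0738 without rhWnt3aOSMI replicate 2, with log2 fold changes of −0.58 to −0.70. Against rhWnt3a, the value was −0.63 ± 0.14 (edgeR adjusted p = 0.0379) without rhWnt3aOSMI replicate 3, the highest of its group. Without the 3 libraries lying apart Dkk3 was at −0.32 ± 0.08 with rhWnt3a against vehicle (edgeR adjusted p = 0.00279, short of the fold threshold), −0.70 ± 0.08 for the combination against rhWnt3a (1.67e-06) and −1.02 ± 0.08 against vehicle (3.29e-09). The SE of 0.08, against 0.16 with all libraries, comes after removing libraries picked for their distance. These p-values therefore overstate the certainty of the Dkk3 changes.

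**Figure D3:**
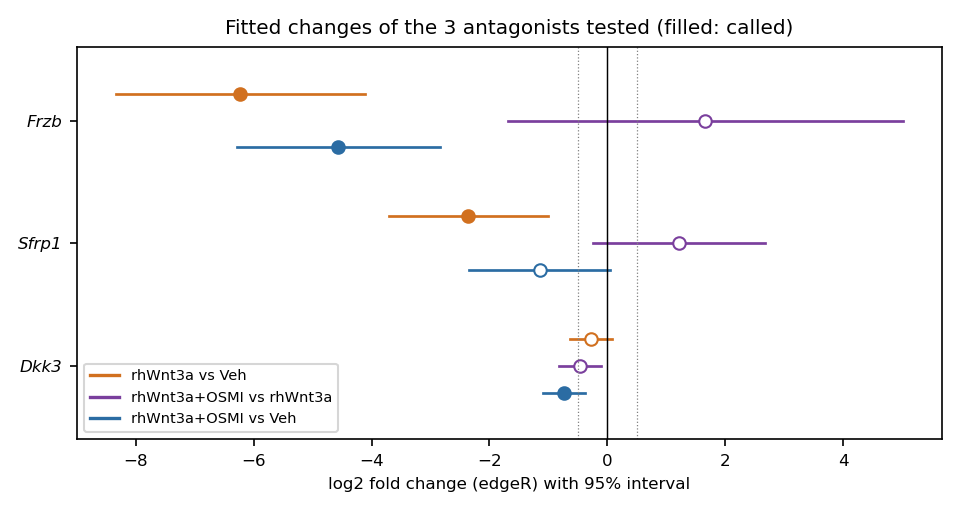
Log2 fold changes of Frzb, Sfrp1 and Dkk3 from the edgeR fit of all 9 libraries (points) with 95% intervals (lines) in the 3 comparisons, filled where called, with dotted lines at the fold threshold of 0.5. Frzb was at −6.23 and −4.57 in the comparisons with vehicle, while no antagonist was called between rhWnt3aOSMI and rhWnt3a.

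The Dickkopf genes that block LRP5 and LRP6 were at the edge of detection. Dkk1, on chromosome 19 from 30545863 to 30549665 (ENSMUSG00000024868), had 2 counts in rhWnt3a replicate 2 and 0 in the other 8 libraries, which allows at most 0.191 CPM in any of these. Dkk2, on chromosome 3 from 132085292 to 132180304 (ENSMUSG00000028031), had 0, 0 and 1 counts with vehicle, 0, 5 and 1 with rhWnt3a and 0 in each library with OSMI added. The library with 5 Dkk2 counts and the library with 2 Dkk1 counts were the same, rhWnt3a replicate 2, which lay apart from its group. For Dkk2, 0 against 6 summed counts put the ratio of the combination to rhWnt3a at up to 0.843 (95% upper bound, counting error only), but 5 of the 6 came from that library, and in the edgeR fit without the filter the unadjusted p was 0.0475 and the adjusted p 0.308. No group difference of Dkk1 was detectable at this depth.

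Wif1, which captures Wnts through its WIF domain, was the antagonist with more counts under rhWnt3a than with vehicle in every library. It lies on chromosome 10 from 121033960 to 121100650 on the plus strand (ENSMUSG00000020218) and has 10 exons in its longest coding transcript. It had 2, 0 and 5 counts with vehicle, 10, 7 and 7 with rhWnt3a, then 0, 2 and 0 when OSMI was added. The rhWnt3a libraries were above all others, and vehicle overlapped with the combination. Summed counts were 3.36 times higher with rhWnt3a than with vehicle (95% interval 1.41 to 9.24, counting error only), and 12.1 times higher than with rhWnt3a and OSMI (3 to 106). Wif1 stayed below the count filter, and in the edgeR fit without it the adjusted p was 0.47 for rhWnt3a against vehicle, 0.0541 for the combination against rhWnt3a and 0.529 for the combination against vehicle, so that no comparison passed.

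Sfrp2 and Wif1 were the untested members with at least 15 counts in all, and non-overlap was read against the 3741 genes below the filter with as many counts. Wif1 alone of these did not overlap between rhWnt3a and vehicle (background 16.1%). Both did not overlap between rhWnt3aOSMI and rhWnt3a (background 14.4%), and Sfrp2 alone between rhWnt3aOSMI and vehicle (background 17.4%).

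Markers of other cell types moved with some of these genes. The 5 chondrocyte markers (Sox9, Col2a1, Acan, Col9a1 and Comp) were above the floor with vehicle, and Acan was at or below it in all 6 other libraries. They summed to 300 to 423 CPM in the vehicle libraries, 95.4 to 122 with rhWnt3a and 80.4 to 131 with rhWnt3a and OSMI and, as for Frzb, every vehicle library was above every other library. All 4 tested were called lower in each comparison with vehicle (background 5.86% lower with rhWnt3a and 9.34% with rhWnt3a and OSMI). Of these, Col9a1 passed the filter through the vehicle group, so its calls could hardly be other than lower. The 8 stromal markers summed to 20100 to 26900, 16000 to 18900 and 8850 to 16500 CPM, highest with vehicle as Dkk3 was, with overlap between the other groups. Col1a1 and Col1a2 held most of that sum (10100 and 9350 CPM with vehicle), and neither was called with rhWnt3a. The means of Vim and Vcam1 also stepped down across the groups. Pdgfra (268, 311 and 192 CPM) and Cxcl12 (1320, 266 and 358 CPM) did not, and Pdgfrb (876, 847 and 798 CPM) was not called. Adipocyte markers summed to 63.3 to 82.1, 32.7 to 43.7 and 41.7 to 44.5 CPM, with Adipoq and Plin1 at the floor. Pparg (24, 7.24 and 11.2 CPM) and Fabp4 (22.8, 4.05 and 1.94 CPM) were called lower in each comparison with vehicle. Cebpa (25.9, 26.5 and 29.7 CPM) was not called in any comparison. With OSMI added to rhWnt3a Pparg was called higher (log2 0.63 ± 0.14, edgeR adjusted p = 0.0374), and Fabp4 was not called. Osteoblast markers summed to 44.8 to 58.6, 45.9 to 63.8 and 66.6 to 95.9 CPM. Runx2 made up nearly all of the osteoblast sum (means 52.5, 57.1 and 77.7 CPM) and was not called in any comparison. Neither Alpl (0.138, 0.315 and 0.0191 CPM) nor Bglap (0.272, 0 and 0.0194 CPM) was highest with OSMI added, and Sp7, Ibsp and Dmp1 were at the floor. Lyz2, a myeloid gene, had 90, 103 and 160 counts with vehicle, 36, 39 and 38 with rhWnt3a, then 62, 41 and 11 when OSMI was added, and was called lower in the combination against vehicle (log2 −1.65 ± 0.46, edgeR adjusted p = 0.0382), while the pan-leukocyte gene Ptprc stayed at or below the floor in every library. Endothelial markers summed to at most 1.28 CPM, with Cdh5 and Kdr at the floor, and epithelial markers to at most 0.191, with all 4 at the floor. The part of these cell types in the antagonist results was not tested.

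By Pearson correlation of log2 CPM over the 9 libraries, among 14003 other genes, Frzb was most like Xaf1 (r = 0.995) and Gas6 (r = 0.995). Gas6 stood at 778, 255 and 272 CPM in vehicle, rhWnt3a and rhWnt3aOSMI. Dkk3 was most like Pknox2 (r = 0.988; 18.5, 13.6 and 7.99 CPM) and Ccbe1 (r = 0.988; 37.4, 22.6 and 9.9 CPM), and Sfrp1 was most like Pcyt2 (r = 0.918) and Sh3glb2 (r = 0.915). The libraries share groups and scaling, so these values are descriptions. Frzb was at or near the floor in every library given rhWnt3a. Its r therefore mainly reflects the separation of vehicle from the other libraries.

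For the lists that follow, 2.92% of all tested genes were called higher and 5.86% lower with rhWnt3a against vehicle. The shares were 1.69% and 3.05% for rhWnt3aOSMI against rhWnt3a, and 4.84% and 9.34% for rhWnt3aOSMI against vehicle. Left-out libraries were examined gene by gene for the members only, so the calls in these lists lack that check. Among the 9 other secreted antagonists, 3 passed the filter, Igfbp4, Sostdc1 and Notum. Igfbp4, an IGF-binding protein that also blocks Wnt receptors, had 4877, 5980 and 10884 counts with vehicle, 14533, 20101 and 15341 with rhWnt3a and 6809, 6659 and 9390 with OSMI added. It rose by a log2 of 1.19 ± 0.27 with rhWnt3a (edgeR adjusted p = 0.0205) and fell by 1.13 ± 0.27 with OSMI added (adjusted p = 0.0413). Sostdc1, a sclerostin relative that binds LRP coreceptors, had 20, 16 and 27, then 17, 14 and 19, then 1, 1 and 3 counts. Its summed counts were 10.1 times lower with the combination than with rhWnt3a (95% interval 4.04 to 32.4, counting error only, edgeR adjusted p = 0.00775). Notum, which removes the lipid of Wnt and is shown here although not called, had 5, 3 and 8, then 24, 25 and 31, then 6, 2 and 22 counts (edgeR adjusted p = 0.0672 with rhWnt3a). Thus 1 of the 3 rose with rhWnt3a and 2 fell with OSMI added, and against vehicle Sostdc1 alone was called, lower in the combination.

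Of 15 tested receptors and coreceptors, Fzd6, Fzd8 and Fzd9 fell with rhWnt3a and none rose (median log2 fold change −0.14, against 0.04 over all genes). Fzd8 fell by 1.5 ± 0.19 on the log2 scale (edgeR adjusted p = 0.000948) and Fzd9 by 2.16 ± 0.48 (adjusted p = 0.0205). Fzd9 passed the filter through the vehicle group, so a call against vehicle could hardly be other than lower. With OSMI added to rhWnt3a Fzd5 rose and Fzd2 fell (median −0.01), and in the combination against vehicle 2 rose and 6 fell (median −0.37), among the latter Lrp5 (−1.07 ± 0.31, edgeR adjusted p = 0.0469) and the Wnt5a receptor Ror1 (−1.04 ± 0.28, adjusted p = 0.0332). Of 5 tested membrane antagonists and Kremen coreceptors of Dickkopfs none was called in any comparison, the nearest with rhWnt3a being Lrp4 (1.3 ± 0.4, edgeR adjusted p = 0.0829).

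With rhWnt3a against vehicle, the ligands of the pathway that were called rose, and the agonist that was called fell. Of 5 tested Wnt genes, Wnt5a (1.08 ± 0.17, edgeR adjusted p = 0.00349) and Wnt9a (1.06 ± 0.15, adjusted p = 0.00168) rose with rhWnt3a, and Wnt9a fell by 1.09 ± 0.15 with OSMI added (adjusted p = 0.00497). In the combination against vehicle Wnt5a rose and Wnt10a fell. Of 4 tested R-spondins and Lgr receptors, which strengthen Wnt signalling, Rspo2 fell with rhWnt3a (−0.88 ± 0.14, edgeR adjusted p = 0.00288), none was called with OSMI added, and Rspo2, Rspo3 and Lgr5 fell in the combination against vehicle. All 5 tested target and feedback genes, Axin2, Tnfrsf19, Tcf7, Lef1 and Nkd2, rose with rhWnt3a while Frzb and Sfrp1 fell. Tcf7 (0.117, 0.851 and 0.448 CPM in vehicle, rhWnt3a and rhWnt3aOSMI) passed the filter through the rhWnt3a group. Its call with rhWnt3a could thus hardly be other than higher. Nkd1 and Sp5 of the same list had too few counts for the test. With OSMI added 1 of the 5, Tnfrsf19, fell (−2.32 ± 0.33, edgeR adjusted p = 0.00582), and against vehicle 3 of the 5, Axin2, Nkd2 and Tnfrsf19, were called higher.

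**Figure D4:**
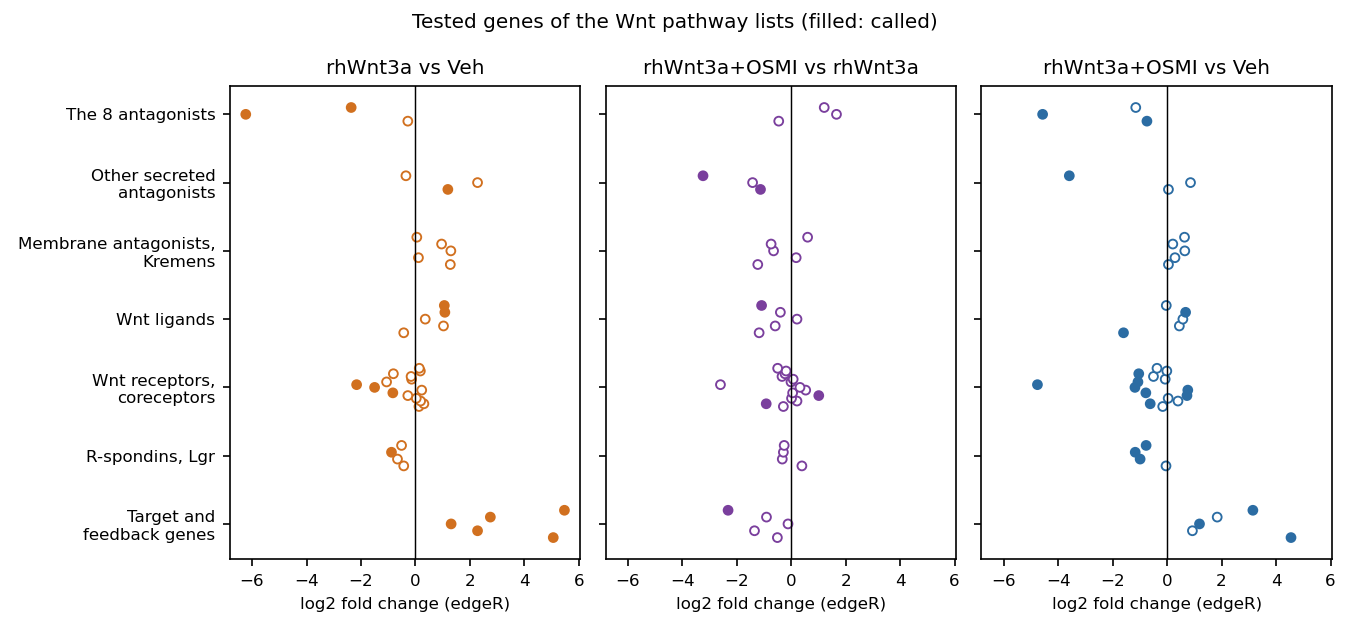
Log2 fold changes (edgeR, x axis) of the tested genes of each Wnt pathway list (rows) in the 3 comparisons (panels), filled where called. With rhWnt3a the 5 target and feedback genes lie to the right of 0 and the antagonists Frzb and Sfrp1 lie furthest to the left.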

How the data were processed

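ST2 cell mRNA was measured in 9 libraries, 3 per group. Per the labels and the submitters' processing notes, CASAVA, fastp, HISAT2 2.0.5 and featureCounts 1.5.0-p3 were used on mm10, and the annotation release and strand setting are not given in the sources used here. The authors deposited read counts per gene, not normalized, and FPKM values, which the authors scaled by gene length and library size. Deposited fold changes and p-values from the authors' own DESeq2 comparisons were not used. Every member's coordinates match GENCODE M21.

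The count analysis used edgeR 4.0.16 under R 4.3.3, with filterByExpr (minimum count 10, minimum total 15; 14004 genes), TMM, glmQLFit on all 9 libraries without covariates, two-sided glmQLFTest and Benjamini-Hochberg adjustment per comparison. DESeq2 1.42.0, other filters and scaling, left-out libraries, a replicate block and other fold thresholds were alternatives. Correlations used log2 CPM with a prior count of 2. Intervals of summed-count ratios are exact binomial, scaled by depth. The scripts were tested on simulated data. Depth was 16135898 to 17583945 counts per library. BLAST 2.17.0 searched for other genes at least 97% identical over 100 bases, and found none for 7 of the 8 members and the antisense Gm26771 for Sfrp2.

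Members, pathway and marker lists and the 3 libraries lying apart were chosen with earlier results of these data known. Named are all members, up to 4 called genes per pathway list by size of change, the 2 genes most like each called member, and Axin2. Fzd2, Fzd5, Fzd6, Nkd1, Nkd2, Sp5, Notum, Lrp4, Lyz2 and the stromal, adipocyte and osteoblast markers given with values were named after their values were seen. The sample titles state no pairing by replicate number, and the main fit used none. The summed level of a further marker list is not reported here.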

Additional observations from a re-analysis of the deposited data

How the results depend on the processing

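Frzb kept its calls against vehicle under every alternative that gave a value, and it left the test when 10 counts were required in every library. The number of antagonists called with rhWnt3a against vehicle was 2, and 0 with at least 10 counts in every library, 1 with the 6 libraries compared, 1 with the replicate block and 1 to 2 with a library left out. For rhWnt3aOSMI against rhWnt3a it was 0, and 1 without the 3 libraries lying apart and 0 to 1 with a library left out. For rhWnt3aOSMI against vehicle it was 2, and 1 with at least 10 counts in every library, 1 at a log2 fold change beyond 1 and 1 to 2 with a library left out. The Frzb difference between rhWnt3aOSMI and rhWnt3a (1.66) ran from −1.87 (without rhWnt3aOSMI replicate 3) to 3.54 (without rhWnt3a replicate 2) with a library left out and was 0 without the 3 libraries lying apart, where no count is left in either group.

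Over all genes, 1230 were called with rhWnt3a against vehicle, 2557 without the 3 libraries lying apart, 809 with the replicate block, 796 beyond a log2 fold change of 1 and 716 to 1506 with a library left out. For rhWnt3aOSMI against rhWnt3a the 664 calls became 1481 without the filter, 1241 with DESeq2, 345 with 6 libraries, 1789 without the 3 libraries, 233 with the replicate block, 380 beyond 1 and 203 to 764 with a library left out. For rhWnt3aOSMI against vehicle the 1986 calls became 3351 without the 3 libraries, 1297 with the replicate block, 1118 beyond 1 and 1218 to 2328 with a library left out. The counts without the 3 libraries are descriptions, since those libraries were picked for their distance. Same-numbered replicates correlated at −0.49 to 0.44, and not every library correlated best with its own number. The sample titles number the replicates without stating a pairing, and these correlations cannot decide whether there was one. With the replicate block Sfrp1 was at −2.38 (edgeR adjusted p = 0.083). Where a call changed, the cause was not tested beyond the construction of each alternative. At this depth 5 of the 8 antagonists fell below the count filter, and none of these 5 passed an adjusted p of 0.05 in the fit without it.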
